A study of Mus musculus with 23 samples.

Results

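The Dlx family comprises 6 mouse genes, Dlx1 to Dlx6, that encode homeodomain transcription factors related to the fly protein Distal-less. All 6 were found among the 54347 genes of the deposited table by matching Ensembl identifiers to gene symbols without the version, and the antisense RNAs named after them were kept apart. Levels were measured by RNA sequencing in 23 libraries from the labial cervical loop, the epithelial fold that holds the stem cells of the ever-growing mouse lower incisor. All mice were at postnatal day 2 and carried Sox2-GFP, in which the endogenous Sox2 promoter drives a fluorescent reporter, and no other allele or treatment is given in the labels. Tissue was dissociated with collagenase and neutral protease, and cells were separated by fluorescence into Sox2-negative cells and Sox2-positive cells, the latter labelled as dental epithelial stem cells. Batch A gave 6 Sox2-negative and 6 Sox2-positive libraries and batch B gave 4 and 7, and the batches were run on different days with different mice. The Sox2-negative gate holds whatever other cells the dissected loop contained. The labels do not say whether libraries of 1 batch came from separate mice, so p-values measure only the spread between libraries, which may be technical.

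Dlx proteins bind DNA through a homeodomain and act mainly as activators of transcription. The genes lie in convergent pairs that share enhancers, and they are best known for setting identity along the jaw axis of the pharyngeal arches, for interneuron development in the forebrain and for bone and tooth formation. In the tooth, Dlx genes are active in both epithelium and neural crest derived mesenchyme. Loss of Dlx1 together with Dlx2 stops upper molars from forming, loss of Dlx5 together with Dlx6 turns lower jaw structures towards upper jaw form, and changes in human DLX3 cause tricho-dento-osseous syndrome, a disorder of hair, enamel and bone.

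The family's shared feature is the homeobox, the stretch of the coding sequence that encodes the homeodomain. It is shown here because the members differ in level between the sorted populations while carrying closely related homeoboxes. Each was read from GENCODE M21 transcripts (build GRCm38, mm10), 5′ to 3′ on the coding strand, as 180 bases in 2 exon segments of 132 and 48 bases. The 18 capitals encode the core of the recognition helix, which contacts DNA in the major groove.
Dlx1: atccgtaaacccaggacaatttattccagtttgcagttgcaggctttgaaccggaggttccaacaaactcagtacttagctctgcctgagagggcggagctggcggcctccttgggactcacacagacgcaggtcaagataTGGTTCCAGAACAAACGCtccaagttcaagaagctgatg
Dlx2: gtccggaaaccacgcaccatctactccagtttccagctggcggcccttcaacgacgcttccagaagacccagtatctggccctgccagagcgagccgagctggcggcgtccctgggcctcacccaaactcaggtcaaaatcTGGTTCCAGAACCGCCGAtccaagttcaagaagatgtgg
Dlx3: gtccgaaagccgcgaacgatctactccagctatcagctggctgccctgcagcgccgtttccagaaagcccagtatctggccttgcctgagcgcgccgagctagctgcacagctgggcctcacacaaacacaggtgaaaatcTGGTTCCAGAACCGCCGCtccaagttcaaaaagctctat
Dlx4: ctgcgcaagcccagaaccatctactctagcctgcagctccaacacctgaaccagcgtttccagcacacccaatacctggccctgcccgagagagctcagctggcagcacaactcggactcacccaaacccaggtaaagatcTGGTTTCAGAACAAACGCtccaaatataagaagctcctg
Dlx5: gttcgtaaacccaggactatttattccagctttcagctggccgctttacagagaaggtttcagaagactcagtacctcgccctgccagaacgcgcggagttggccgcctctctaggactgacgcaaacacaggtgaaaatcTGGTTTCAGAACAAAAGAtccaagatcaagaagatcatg
Dlx6: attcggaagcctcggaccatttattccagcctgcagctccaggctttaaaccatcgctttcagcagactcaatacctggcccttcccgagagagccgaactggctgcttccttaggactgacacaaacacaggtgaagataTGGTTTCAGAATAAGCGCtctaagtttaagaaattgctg

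On mm10 the homeoboxes span chr2:71531025-71532311 on the plus strand (Dlx1), chr2:71544877-71545515 on the minus strand (Dlx2), chr11:95121767-95123456 on the plus strand (Dlx3), chr11:95141422-95141920 on the minus strand (Dlx4), chr6:6878441-6879657 on the minus strand (Dlx5) and chr6:6865140-6867088 on the plus strand (Dlx6), introns included. Base identity between 2 members ranged from 66.1% (Dlx3 and Dlx6) to 81.7% (Dlx2 and Dlx3). Neighbours on a chromosome shared 73.9% (Dlx1 and Dlx2), 71.7% (Dlx3 and Dlx4) and 73.3% (Dlx5 and Dlx6). Dlx2, Dlx3 and Dlx5 form 1 ancient branch of the family and Dlx1, Dlx4 and Dlx6 the other. Identity within the first branch was 81.7% (Dlx2 and Dlx3), 75.6% (Dlx2 and Dlx5) and 71.7% (Dlx3 and Dlx5), and within the second 72.2% (Dlx1 and Dlx4), 76.7% (Dlx1 and Dlx6) and 75.6% (Dlx4 and Dlx6). No word of 31 bases was shared between the annotated transcripts of any 2 members, so no stretch of that length is identical between them.

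Total estimated counts ranged from 2305588 to 9541800 per library, so that 3 counts, taken as the lowest level the depth can show, corresponded to 0.355 to 1.29 CPM (counts scaled by library size with TMM factors). Such a floor reflects counting error alone, because reads that carry no molecular identifier can be copies of 1 molecule. Sox2, the gene behind the sort, averaged 7.25 ± 4.40 CPM in batch A Sox2-positive libraries (SD, n = 6) and 16.3 ± 2.90 in those of batch B (n = 7), while 5 of 6 and 3 of 4 Sox2-negative libraries held 0 counts. The summed CPM of 6 epithelial markers (Epcam, Cdh1, Krt5, Krt14, Krt15, Trp63) ran from 2593 to 4419 in Sox2-positive and from 137 to 347 in Sox2-negative libraries. That of 8 mesenchymal markers (Col1a1, Col1a2, Col3a1, Vim, Pdgfra, Pdgfrb, Twist1, Prrx1) ran from 699 to 1918 and from 10560 to 13610, with Twist1 at 0 in every Sox2-positive library. The sum of 6 markers of ameloblasts, the enamel-forming cells of the dental epithelium, ran the other way. It was 591 to 935 CPM in Sox2-negative and 6.80 to 349 CPM in Sox2-positive libraries. Amelx alone averaged 652 and 446 CPM in the Sox2-negative and 270 and 6.74 CPM in the Sox2-positive groups of batches A and B. Amtn was at 0 in every library, and Klk4 averaged at most 0.551 CPM in any group. By the edgeR test used below, 4 of the 6 were tested. All 4 were lower in Sox2-positive libraries over both batches, and 3 were in batch A. Batch B libraries numbered 1 and 2, which earlier results of these data set apart from the other numbers in both populations, were left out of the fits in an alternative. Fit results that change without them are given both ways. The family shares, pair ratios and marker sums were not recomputed without them.

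Compared per length (CPM divided by the union exon length in kb), the 6 genes stood in a different order in the 2 populations. The union length counts every base that is exonic in any annotated transcript. For Dlx1, at 5396 bases, it takes in part of the intron inside the homeobox of the transcript shown above. A longer length gives Dlx1 a lower level per length, rank and share in all libraries. Dlx2 led in Sox2-positive libraries, with 50.1 ± 6.55 CPM per kb in batch A (SD, n = 6) and 68.0 ± 11.99 in batch B (n = 7). Dlx3 led in Sox2-negative libraries, with 60.7 ± 7.30 in batch A (n = 6) and 110.5 ± 13.6 in batch B (n = 4). Dlx6 was the lowest member in both Sox2-positive groups, at 1.33 ± 0.971 and 1.66 ± 1.16 CPM per kb. Summed over the family, the level averaged 123 ± 11.6 CPM per kb in Sox2-positive and 171 ± 29.2 in Sox2-negative libraries of batch A, and 165 ± 21.7 and 268 ± 23.9 in batch B.

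The full order in batch A Sox2-positive libraries was Dlx2, Dlx3, Dlx5, Dlx1, Dlx4 and Dlx6. The ranges over libraries overlapped between Dlx2 (42.0 to 59.8 CPM per kb) and Dlx3 (29.8 to 46.7) and between Dlx1 (4.46 to 8.99) and Dlx4 (5.68 to 9.03), and the other neighbours in that order did not overlap. Batch B Sox2-positive libraries had Dlx5 (45.3 ± 3.22) ahead of Dlx3 (37.2 ± 7.51), and each pair of neighbours overlapped there except Dlx3 and Dlx1. Among Sox2-negative libraries the order was Dlx3, Dlx5, Dlx4, Dlx2, Dlx6, Dlx1 in batch A, where every pair of neighbours overlapped. In batch B it was Dlx3, Dlx5, Dlx2, Dlx4, Dlx1, Dlx6, and Dlx3 (91.1 to 121.5), Dlx5 (48.6 to 74.1) and Dlx2 (23.8 to 33.7) did not overlap while the lower neighbours did.

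**Figure D1:**
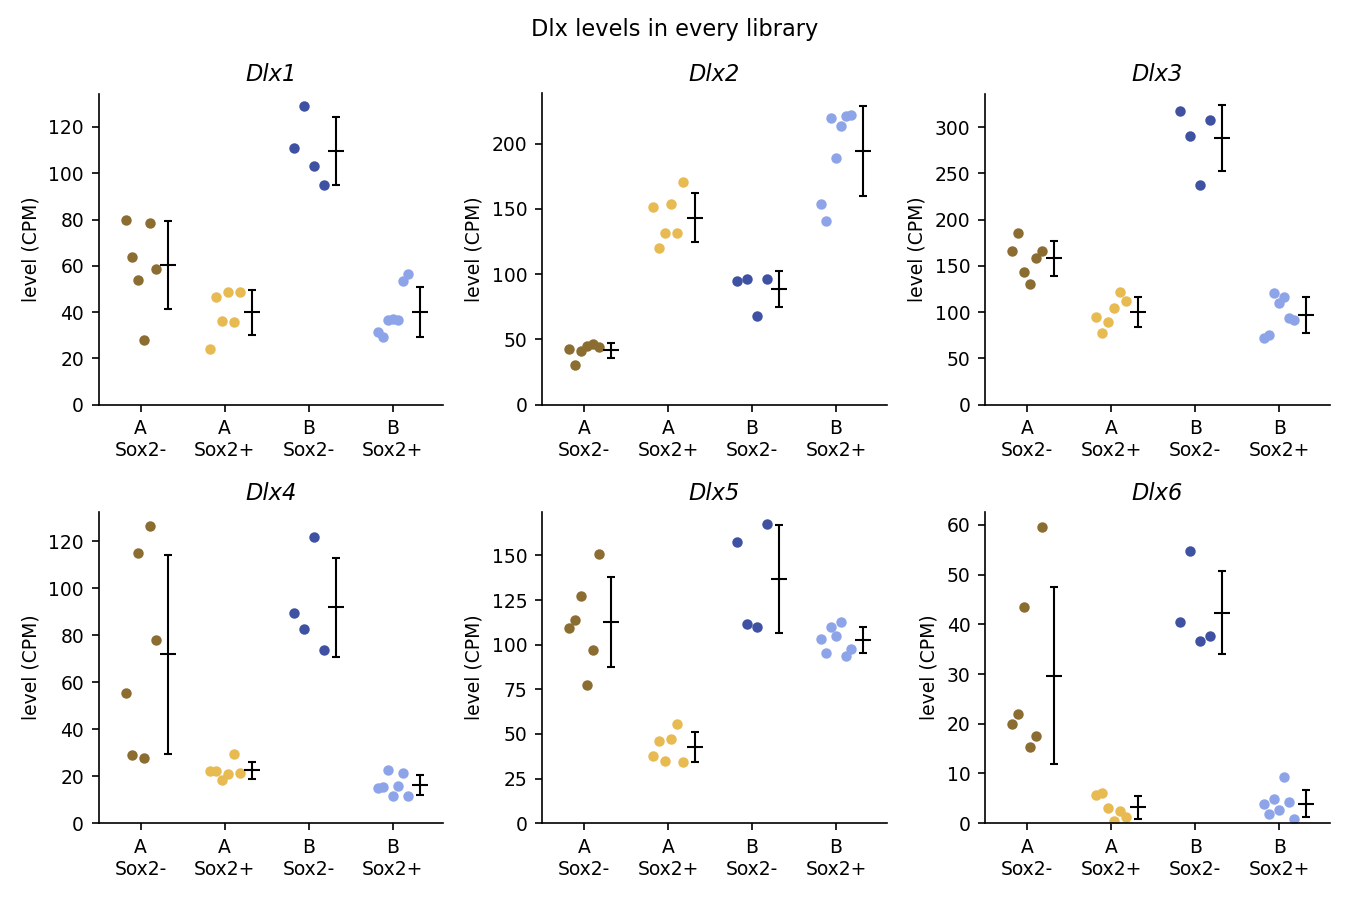
Level of each Dlx gene (vertical axis, CPM, starting at 0) in every library, 1 panel a gene and 1 point a library, by batch (A, B) and population (Sox2-, Sox2+), with the group mean and SD beside the points. Dlx2 is highest in the Sox2+ groups, and the other 5 genes have their highest group mean in the Sox2- libraries of batch B.

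Across all libraries with batch as a covariate, all 6 genes differed between the populations: Dlx2 was higher in Sox2-positive cells and the other 5 were lower (edgeR quasi-likelihood test, Benjamini-Hochberg adjusted p under 0.05). The background of that test was 57.5% of 17190 genes called, 24.9% higher and 32.5% lower. The median log2 difference was -1.05 over the 6 genes and -0.12 over all genes tested. In batch A alone 5 of 6 passed (1 higher, 4 lower), where 43.4% of all genes did (19.3% higher, 24.2% lower), with medians of -1.03 and -0.04. In batch B all 6 passed (1 higher, 5 lower), where 54.7% did (27.1% higher, 27.6% lower), with medians of -1.44 and 0.01. With a background this high, the count of members called is not in itself a result about the family.

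Marker sums of several cell types moved with the populations in both batches. Beside the epithelial, mesenchymal and ameloblast sums given above, 5 endothelial markers summed to 124 to 824 CPM in Sox2-negative and 0.431 to 5.81 CPM in Sox2-positive libraries, and 6 leukocyte markers to 545 to 3203 and 4.31 to 14.7 CPM. The 6 erythroid markers summed to 977.5 to 61780 CPM in Sox2-negative and 0 to 11.6 CPM in Sox2-positive libraries. The 3 glial and neural crest markers went the other way, at 0 to 4.63 CPM in Sox2-negative and 15.0 to 327 CPM in Sox2-positive libraries. The part of these cell types in the Dlx differences was not tested. In bulk libraries fewer cells of a type and less RNA per cell cannot be told apart.

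Dlx2 was the 1 member that rose in the Sox2-positive population. The gene (ENSMUSG00000023391.8) lies at chr2:71543408-71546754 on the minus strand, acts in both tooth epithelium and mesenchyme, and ends 9.43 kb from the end of Dlx1. In batch A it ranged from 119.8 to 171 CPM (median 141) in the 6 Sox2-positive libraries and from 30.4 to 46.4 CPM (median 43.5) in the 6 Sox2-negative ones. In batch B the 4 Sox2-negative libraries held 95.1, 96.1, 67.9 and 96.2 CPM and the 7 Sox2-positive ones 140.8 to 222 CPM (median 214). All Sox2-positive libraries lay above all Sox2-negative libraries of their batch, as was so for 28.1% of all genes in either direction in batch A and 38.1% in batch B. The log2 difference was 1.78 (SE 0.16, edgeR adjusted p 1.86e-07, 3.43-fold) in batch A, 1.199 (SE 0.16, adjusted p 1.2e-05, 2.3-fold) in batch B and 1.47 (SE 0.13, adjusted p 2e-10, 2.77-fold) over both. Within batch B, the Sox2-positive libraries numbered 1 and 2 were the lowest, at 153.9 and 140.8 CPM, and without the libraries of those numbers the batch B difference was 1.41 (edgeR adjusted p 2.81e-05).

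Dlx1 (ENSMUSG00000041911.3, chr2:71528113-71533981, plus strand), the partner of Dlx2 in the pair, went the other way. It ranged from 24.1 to 48.5 CPM (median 41.3) in batch A Sox2-positive libraries and from 28.1 to 79.7 CPM (median 61.2) in the Sox2-negative ones. Batch B had 111, 129, 103 and 95.01 CPM in its Sox2-negative libraries and 29.0 to 56.5 CPM (median 36.5) in its Sox2-positive ones. The groups overlapped in batch A, where Sox2-negative library 4 was lowest, and stood apart in batch B. The log2 difference was -0.60 in batch A (SE 0.26, interval -1.16 to -0.04 at 95% confidence, edgeR adjusted p 0.079), which did not pass. Without Sox2-negative library 4 it was -0.74 (edgeR adjusted p 0.0167) and passed. In batch B it was -1.39 (SE 0.19, edgeR adjusted p 1.13e-05, 2.62-fold lower), and over both -1.01 (SE 0.18, adjusted p 3.36e-05).

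Dlx3 (ENSMUSG00000001510.8, chr11:95120119-95125296, plus strand), the regulator of hair, enamel and dentin formation, fell in the Sox2-positive population. It ranged from 77.6 to 121.9 CPM (median 99.5) in batch A Sox2-positive libraries and from 131 to 185 CPM (median 162) in Sox2-negative ones. The batch B Sox2-negative libraries held 317, 290.4, 238 and 308 CPM and the Sox2-positive ones 71.8 to 121 CPM (median 94.0). Neither batch had any overlap. The log2 difference was -0.66 (SE 0.14, edgeR adjusted p 0.00126) in batch A and -1.50 (SE 0.15, adjusted p 5.47e-07) in batch B, which is 1.58-fold and 2.83-fold lower. Over both batches it was -1.09 (SE 0.14, edgeR adjusted p 1.28e-07).

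Dlx4 (ENSMUSG00000020871.8, chr11:95140447-95146263, minus strand), the neighbour of Dlx3 at 15.2 kb and the least studied member in teeth, had the widest SD of the members in CPM in batch A Sox2-negative libraries. These ranged from 27.9 to 126.7 CPM (median 66.6), with 2 libraries under 30 CPM and 2 over 110 CPM, while the 6 Sox2-positive libraries of that batch ranged from 18.6 to 29.5 CPM (median 21.8). Batch B gave 89.3, 82.5, 122 and 73.8 CPM in Sox2-negative and 11.4 to 22.5 CPM (median 15.5) in Sox2-positive libraries. The groups overlapped in batch A through its 2 lowest Sox2-negative libraries and did not in batch B. The log2 difference was -1.67 (SE 0.36, edgeR adjusted p 0.00143) in batch A, -2.42 (SE 0.21, adjusted p 1.14e-07) in batch B and -2.06 (SE 0.23, adjusted p 2.27e-08, 4.17-fold lower) over both.

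Dlx5 (ENSMUSG00000029755.10, chr6:6877805-6882085, minus strand), an activator of osteoblast genes and of lower jaw identity, had a population difference of unequal size in the 2 batches. In batch A it ranged from 34.5 to 55.4 CPM (median 41.8) in Sox2-positive and from 77.3 to 151 CPM (median 112) in Sox2-negative libraries, without overlap. In batch B the Sox2-negative libraries held 158, 112, 110.0 and 168 CPM and the Sox2-positive ones 93.8 to 113 CPM (median 103), and 2 of the 4 Sox2-negative libraries fell inside the Sox2-positive range. The log2 difference was -1.40 (SE 0.20, edgeR adjusted p 2.87e-05, 2.64-fold lower) in batch A and -0.35 (SE 0.14, adjusted p 0.0423, 1.27-fold lower) in batch B. The batch B call was marginal. It was lost when any 1 of 7 libraries was left out (Sox2-negative 1 or 4, Sox2-positive 1, 2, 4, 6 or 7), with log2 values of -0.23 to -0.35 and edgeR adjusted p of 0.0511 to 0.184. It was also lost without the batch B libraries numbered 1 and 2 (-0.39, edgeR adjusted p 0.0793), with limma-voom (-0.31, adjusted p 0.0603), with total counts (-0.27, adjusted p 0.117) and with no filter beyond 1 count (-0.30, adjusted p 0.143). Over both batches the difference was -0.96 (SE 0.16, edgeR adjusted p 7.73e-06).

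Dlx6 (ENSMUSG00000029754.13, chr6:6863334-6868568, plus strand), which lies 9.24 kb from Dlx5 and acts with it in the lower jaw, had the largest fold of the family. It ranged from 0.473 to 6.08 CPM (median 2.71) in batch A Sox2-positive libraries and from 15.4 to 59.7 CPM (median 21.0) in Sox2-negative ones. Batch B had 40.5, 54.7, 36.7 and 37.6 CPM in Sox2-negative and 0.862 to 9.31 CPM (median 3.87) in Sox2-positive libraries. The populations did not overlap in either batch. The lowest Sox2-positive values, 0.473 (batch A) and 0.862 CPM (batch B), lay under the level of 3 counts in those libraries, 0.710 and 1.29 CPM. The log2 difference was -3.22 (SE 0.59, edgeR adjusted p 0.00037) in batch A, -3.36 (SE 0.39, adjusted p 2.52e-06) in batch B and -3.32 (SE 0.37, adjusted p 1.78e-08, 9.97-fold lower) over both.

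**Figure D2:**
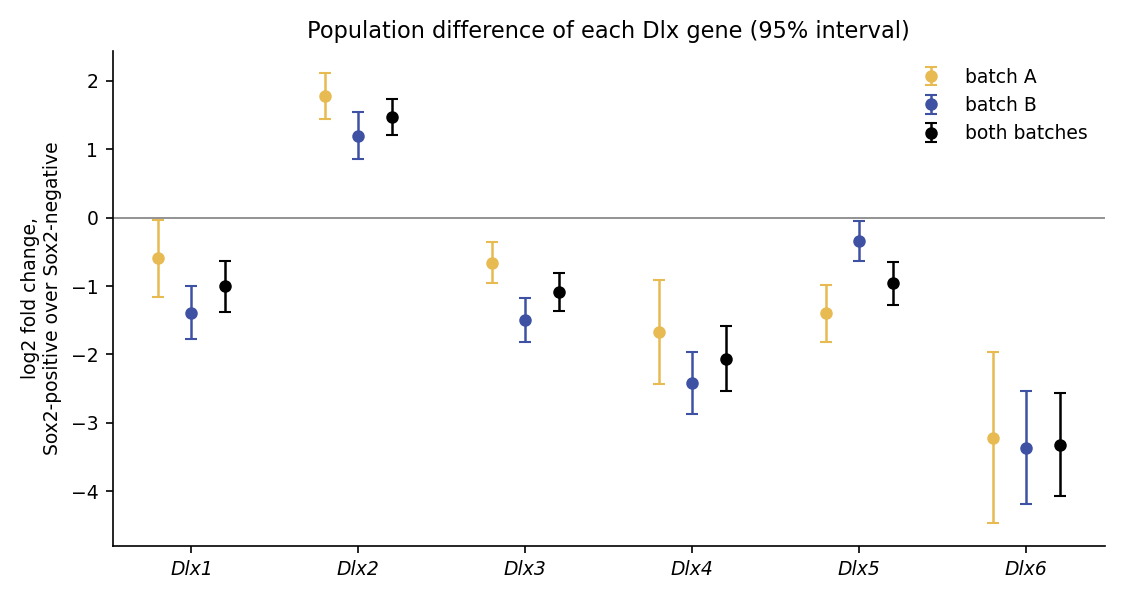
Log2 fold change of Sox2-positive over Sox2-negative libraries (vertical axis) for each Dlx gene, in batch A, batch B and over both batches, with bars giving the 95% interval from the edgeR fit. Dlx2 lies above 0 in all 3 fits, from 1.199 to 1.78, the Dlx6 points lie between -3.36 and -3.22, and Dlx5 is at -1.40 in batch A and -0.35 in batch B.

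The test of the difference between the batches' population effects (batch B minus batch A) passed for 2 of the 6 members, where 7.04% of all genes passed (2.82% with a higher and 4.22% with a lower value). Dlx3 had -0.91 on the log2 scale (SE 0.21, edgeR adjusted p 0.0064), so its fall was larger in batch B. Dlx5 had 0.99 (SE 0.24, edgeR adjusted p 0.00959), so its fall was smaller in batch B. The 4 others did not pass: Dlx1 at -0.85 (interval -1.53 to -0.18, edgeR adjusted p 0.128), Dlx2 at -0.65 (interval -1.08 to -0.22, adjusted p 0.061), Dlx4 at -0.82 (interval -1.72 to 0.08, adjusted p 0.312) and Dlx6 at -0.21 (interval -1.70 to 1.28, adjusted p 0.929). Without the batch B libraries numbered 1 and 2, neither call held: Dlx3 was at -0.70 (edgeR adjusted p 0.116) and Dlx5 at 0.98 (adjusted p 0.0941). Leaving out batch B Sox2-negative library 3 made Dlx2 pass, at -0.76 (edgeR adjusted p 0.03).

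Within the Sox2-negative population, 3 members were higher in batch B than in batch A, against a background of 11.2% of genes called (5.85% higher, 5.35% lower). Dlx2 was 2.13-fold higher (log2 1.09, SE 0.16, edgeR adjusted p 3.44e-05), Dlx3 1.82-fold (0.86, SE 0.16, adjusted p 0.000444) and Dlx1 1.81-fold (0.86, SE 0.25, adjusted p 0.0234). These 3 also had no overlap between the batches, as did 8.87% of all genes. Dlx4 (0.35, adjusted p 0.551), Dlx5 (0.28, adjusted p 0.34) and Dlx6 (0.51, adjusted p 0.589) did not pass in edgeR. The Dlx1 call was lost without batch B Sox2-negative library 1 (0.87, edgeR adjusted p 0.0521) or 2 (0.78, adjusted p 0.0812), without the batch B libraries numbered 1 and 2 (0.71, adjusted p 0.244) and with total counts (0.70, adjusted p 0.0659). The summed CPM of 6 erythroid markers in Sox2-negative libraries ran from 977.5 to 1170.0 (batch A) and from 53420 to 61780 (batch B), that of 6 leukocyte markers from 2834 to 3203 and from 545 to 617, and their part in these differences was not tested.

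Within the Sox2-positive population, 2 members were higher in batch B, against 10.4% of genes called (4.85% higher, 5.54% lower). Dlx5 was 2.41-fold higher in batch B (log2 1.27, SE 0.16, edgeR adjusted p 2.14e-06), with no overlap between the batches, as for 8.55% of all genes. Dlx2 was 1.36-fold higher (0.44, SE 0.14, edgeR adjusted p 0.0386), with overlapping ranges, and lost its call when any 1 of 8 Sox2-positive libraries was left out (batch A 2, 3 or 5, batch B 3, 4, 5, 6 or 7), at 0.40 to 0.45 with adjusted p of 0.0512 to 0.0831. It also lost it with total counts (0.35, edgeR adjusted p 0.11) and with no filter beyond 1 count (0.45, adjusted p 0.104). Dlx1, Dlx3, Dlx4 and Dlx6 did not pass, with log2 values of 0.00 (interval -0.45 to 0.45), -0.04 (-0.33 to 0.24), -0.47 (-1.07 to 0.14) and 0.31 (-0.71 to 1.32). Glial and neural crest markers (Sox10, Foxd3, Erbb3) in Sox2-positive libraries summed to 227 to 327 CPM (batch A) and 15.0 to 33.6 CPM (batch B). Ameloblast markers (Amelx, Ambn, Enam, Amtn, Klk4, Mmp20) summed to 289 to 349 and 6.80 to 10.1 CPM, with Amtn at 0 in every library and Enam at 0 in batch B. The part of either cell type in the Dlx5 and Dlx2 differences was not tested, and batch, day and mice cannot be told apart.

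The make-up of the family within a library does not depend on the scaling between libraries. Shares are parts of the same total, so a rise in any share lowers the sum of the others. The 12 comparisons below are thus not independent. They were not repeated without the batch B libraries numbered 1 and 2. Shares of the summed CPM per kb were compared between the populations of a batch with the exact permutation test (two-sided, on the mean difference), with p adjusted over 12 comparisons; the smallest raw p possible is 0.00216 in batch A and 0.00606 in batch B. Dlx2 held 40.8% ± 3.91 of the family level in Sox2-positive and 8.82% ± 2.33 in Sox2-negative libraries of batch A (SD, n = 6 and 6, exact permutation adjusted p 0.00866). It held 41.2% ± 3.00 and 11.5% ± 1.06 in batch B (n = 7 and 4, exact permutation adjusted p 0.00909). No Sox2-negative library had a Dlx2 share above 13.2% and no Sox2-positive library one below 34.5%.

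The Dlx3 and Dlx5 shares gave different tests in the 2 batches, and the difference between batches was not tested for shares. In batch A, Dlx5 held 15.3% ± 2.76 of the family level in Sox2-positive and 29.1% ± 3.00 in Sox2-negative libraries (exact permutation adjusted p 0.00866), while the Dlx3 shares, 31.1% ± 2.54 and 36.2% ± 5.97, did not pass (adjusted p 0.0968). In batch B, Dlx3 held 22.5% ± 2.27 and 41.1% ± 1.59 (exact permutation adjusted p 0.00909), while Dlx5 held 27.8% ± 3.397 and 22.4% ± 3.47, the higher share being in Sox2-positive libraries (adjusted p 0.0509). Leaving out 1 library moved some of these across the threshold: the Dlx3 share passed without batch A Sox2-negative library 3 (-6.59 percentage points, exact permutation adjusted p 0.0463), and the Dlx5 share passed without batch B Sox2-negative library 4 (6.76 points, adjusted p 0.04) or Sox2-positive library 6 (6.11 points, adjusted p 0.0343).

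The Dlx6 share was 1.14% ± 0.879 against 7.02% ± 3.20 in batch A and 0.983% ± 0.603 against 6.68% ± 1.36 in batch B (exact permutation adjusted p 0.00866 and 0.00909). The Dlx4 share was 5.61% ± 0.752 against 12.4% ± 6.37 in batch A and 3.03% ± 0.748 against 10.7% ± 3.51 in batch B (exact permutation adjusted p 0.0144 and 0.00909). The Dlx1 share, 6.03% ± 1.47 against 6.52% ± 1.80 in batch A (exact permutation adjusted p 0.61), was lower in Sox2-positive libraries in batch B, at 4.51% ± 1.01 against 7.61% ± 1.19 (adjusted p 0.00909).

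**Figure D3:**
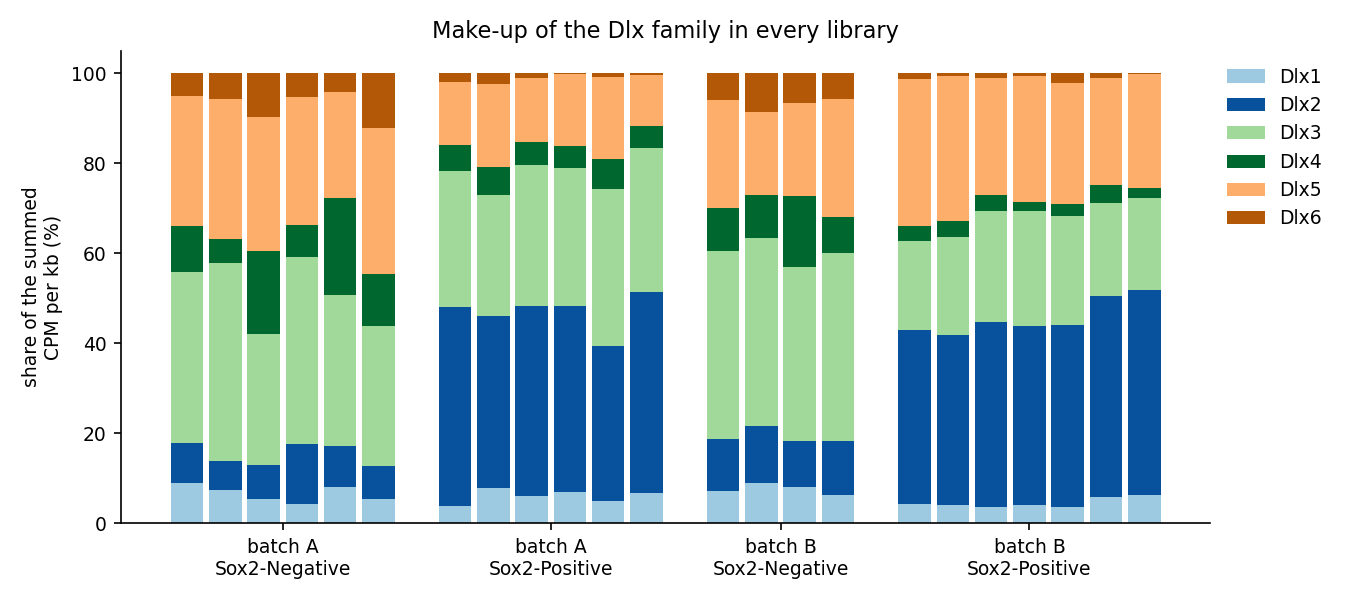
Share of the family's summed CPM per kb (vertical axis, percent) held by each Dlx gene, 1 stacked bar a library, grouped by batch and population. The Dlx2 segment fills 34.5% to 45.7% of every Sox2-positive bar and 6.58% to 13.2% of every Sox2-negative bar.

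Grouped by branch, Dlx2, Dlx3 and Dlx5 together held 87.2% ± 1.79 of the family level in Sox2-positive and 74.1% ± 7.36 in Sox2-negative libraries of batch A, and 91.5% ± 1.06 and 75.0% ± 4.76 in batch B. The ranges of the 2 populations, 83.7% to 88.5% and 66.4% to 83.2% in batch A and 89.5% to 93.1% and 69.5% to 80.1% in batch B, did not overlap. Grouped by chromosome, the Dlx1 and Dlx2 pair held 46.9% ± 4.05 against 15.3% ± 2.37 in batch A and 45.7% ± 3.88 against 19.2% ± 1.64 in batch B. The Dlx5 and Dlx6 pair held 16.5% ± 3.14 against 36.1% ± 5.73 in batch A, and 28.8% ± 3.44 against 29.1% ± 2.304 in batch B. These groupings restate the shares above and were not tested.

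In each pair, the gene of the Dlx2, Dlx3 and Dlx5 branch outweighed its neighbour more in Sox2-positive than in Sox2-negative libraries, by median. The ratios restate the levels above and were not tested. Their size depends on the union lengths, and the long union length of Dlx1 raises the Dlx2 to Dlx1 ratio in all libraries. In CPM, mean Dlx1 stood above mean Dlx2 in Sox2-negative libraries (60.4 and 41.7 in batch A, 109.6 and 88.8 in batch B). It stood below Dlx2 in Sox2-positive ones (39.9 and 143 in batch A, 40.1 and 194 in batch B). The Dlx2 to Dlx1 ratio per length ran from 4.89 to 11.8 (median 6.75) in batch A Sox2-positive and from 0.903 to 3.04 (median 1.27) in Sox2-negative libraries. In batch B it ran from 7.40 to 11.4 (median 9.22) and from 1.24 to 1.91 (median 1.51), again without overlap. The Dlx5 to Dlx6 ratio also did not overlap between the populations, with medians of 17.9 and 5.35 (batch A) and of 27.97 and 3.62 (batch B). Its highest values, 85.4 and 153, came from the 2 libraries in which Dlx6 was under 3 counts. The Dlx3 to Dlx4 ratio had medians of 5.66 and 3.22 in batch A, with overlap, and of 6.72 and 4.43 in batch B, where the highest Sox2-negative value, 5.23, lay just under the lowest Sox2-positive one, 5.49.

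**Figure D4:**
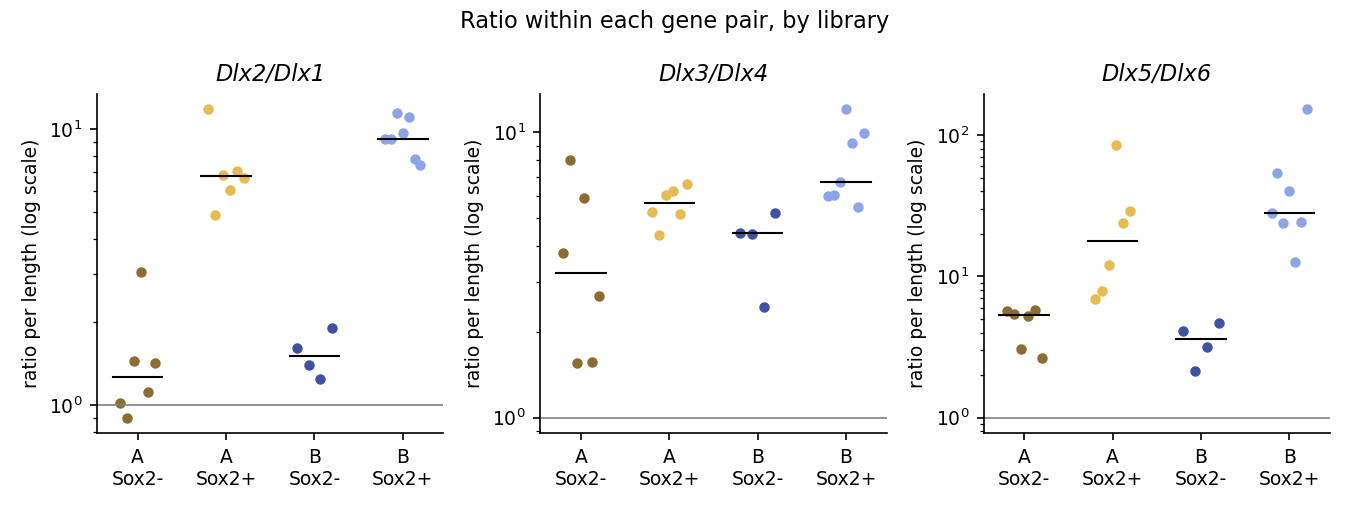
Ratio of the per-length levels of the 2 genes of each chromosomal pair (vertical axis, log scale), 1 point a library, with lines at the group medians and a grey line at a ratio of 1. The Dlx2/Dlx1 medians are 6.75 and 9.22 in the Sox2+ groups of batches A and B and 1.27 and 1.51 in the Sox2- groups.

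Each pair also carries antisense or overlapping RNAs. Reads from exonic bases that a Dlx gene shares with an antisense partner cannot be told apart here, and no strand setting is given. Dlx1as shares 335 exonic bases with Dlx1 (6.21% of its exonic length), Dlx4os 79 with Dlx4 (2.42%) and Dlx6os2 104 with Dlx6 (4.38%), while Dlx6os1 shares 0 exonic bases with Dlx6. Dlx6os1 (ENSMUSG00000090063.6), the transcript also known as Evf2, averaged 5.40 ± 4.08 CPM in Sox2-positive and 60.8 ± 22.95 in Sox2-negative libraries of batch A, and 8.09 ± 4.11 and 63.5 ± 8.61 in batch B. Its log2 difference over both batches was -3.25 (SE 0.35, edgeR adjusted p 1.23e-08), set beside -3.32 for Dlx6. Dlx4os (ENSMUSG00000086552.3) averaged 26.6 ± 4.87 and 41.2 ± 16.7 CPM (batch A) and 20.2 ± 5.00 and 60.3 ± 12.3 CPM (batch B), with a difference of -1.08 over both (SE 0.20, edgeR adjusted p 5.46e-05) that did not pass in batch A alone (-0.63, adjusted p 0.0958). Dlx1as did not pass (-1.37, SE 0.64, edgeR adjusted p 0.0701), at group means of 0.640 to 3.25 CPM. Dlx6os2 stayed at group means of 1.21 CPM or less, and was at 0 in every batch B Sox2-positive library.

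Of the 2 genes on either side of each pair in the annotation's gene order, 3 of 12 were tested: Metap1d (2.92 kb from Dlx1), Itga3 (43.3 kb from Dlx3) and the noncoding Gm11515. Metap1d, a mitochondrial methionine aminopeptidase, did not pass over both batches (0.29, SE 0.23, edgeR adjusted p 0.281) and passed as higher in batch B (0.52, adjusted p 0.0432). Itga3, the integrin alpha 3 subunit of epithelial cells, was higher in Sox2-positive libraries (2.62, SE 0.28, edgeR adjusted p 9.65e-09), and Gm11515 was too at low levels (2.17, SE 0.87, adjusted p 0.0341). Gm11515 was not tested in batch A and did not pass in batch B (1.27, SE 1.05, edgeR adjusted p 0.322). The direction of Itga3 was thus opposite to those of Dlx3 and Dlx4 beside it.

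The genes whose profile over the 23 libraries was most like that of a member were found by Pearson's r on log2 CPM among 11074 genes with a mean of at least 10 CPM. These values are a description: the libraries fall into 4 groups and share batches, populations and a range of depths. Dlx2 was most like Krt8, a keratin of simple epithelia (r 0.97), and Sox9, a transcription factor of epithelial stem cells and cartilage (r 0.96). Dlx3 was most like Serpinh1, the collagen chaperone (r 0.93), and Efnb1, a membrane-bound ephrin (r 0.93), and Dlx5 most like Lox, the collagen cross-linking enzyme (r 0.93), and Sec24a, a vesicle coat protein (r 0.93). Lox had 0 counts in every batch A Sox2-positive library and averaged 18.2 CPM in those of batch B, against 36.9 (batch A) and 63.2 CPM (batch B) in Sox2-negative libraries. The nearest profiles were Sdc1 (r 0.87) and Gm37266 (r 0.85) for Dlx1, Cachd1 (r 0.93) and Reep3 (r 0.90) for Dlx4, and H2-Q7 (r 0.94) and Col27a1 (r 0.93) for Dlx6.

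Of 9 genes reported to act upstream of Dlx genes, 2 were higher in Sox2-positive libraries over both batches, 5 were lower and 2 did not pass. Of all genes, 24.9% were higher and 32.5% lower. The median log2 difference was -1.46 against -0.12 over all genes. Trp63, an epithelial master regulator that activates Dlx3, was higher (3.26, SE 0.33, edgeR adjusted p 3.14e-09), at 222 ± 36.7 against 17.7 ± 14.2 CPM in batch A and 321 ± 24.1 against 43.7 ± 7.61 in batch B. Bmp7 was higher (0.54, SE 0.20, edgeR adjusted p 0.0203), with 1.19 in batch A (adjusted p 0.000191) and -0.09 in batch B (adjusted p 0.722). Bmp4, a ligand that induces Dlx genes in tooth tissue, was lower (-3.23, SE 0.26, edgeR adjusted p 4.02e-11), at 35.1 ± 17.9 against 180 ± 41.5 CPM in batch A and 10.6 ± 2.40 against 198 ± 20.8 in batch B. Bmp2 (-5.73, edgeR adjusted p 2.06e-08) and Ednra, the endothelin receptor upstream of Dlx5 and Dlx6 in the jaw (-2.24, adjusted p 3.92e-08), were lower too. Edn1, its ligand, had 0 counts in every Sox2-positive library. In Sox2-negative ones it averaged 2.74 CPM with the batches pooled, 3.62 ± 2.78 in batch A and 1.42 ± 2.31 in batch B. Set against the mean level of 3 counts per library, Edn1 was at least 4.15-fold lower for the pooled batches only. It was not tested in either batch alone. Mef2c, a factor of the same cascade, was lower over both (-1.46, edgeR adjusted p 0.000875), with -2.96 in batch B (adjusted p 4.16e-08) and -0.04 in batch A (adjusted p 0.915). Fgf8 (-1.01, edgeR adjusted p 0.36) and Tfap2a (-0.39, adjusted p 0.217) did not pass over both. Tfap2a was lower in batch B (-1.10, edgeR adjusted p 0.00274) and had 0.34 in batch A (adjusted p 0.507).

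Of 4 reported partners of DLX proteins, 1 was higher over both batches, 2 were lower and 1 did not pass. Of all genes, 24.9% were higher and 32.5% lower. The partners' median was -0.13 against -0.12 over all genes. Msx1, a homeodomain repressor that binds DLX proteins, averaged 1.89 ± 1.61 CPM in Sox2-positive and 342.5 ± 38.0 in Sox2-negative libraries of batch A, and 0.586 ± 1.12 and 413 ± 45.9 in batch B (-8.32, SE 0.42, edgeR adjusted p 2.88e-15). Msx2, its paralogue, was present in both populations, at 141 ± 18.9 and 166 ± 31.5 CPM in batch A and in batch B at 230.3 ± 24.7 and 348 ± 45.7 CPM (-0.41, SE 0.10, edgeR adjusted p 0.00103). Grip1, an adaptor protein, was higher (1.33, SE 0.44, edgeR adjusted p 0.0108), and Maged1 did not pass (0.15, SE 0.08, adjusted p 0.116). In batch A alone, Maged1 passed as higher (0.37, edgeR adjusted p 0.00799), while Grip1 (1.30, adjusted p 0.134) and Msx2 (-0.23, adjusted p 0.216) did not pass. In batch B, Grip1 (1.46, edgeR adjusted p 0.0218) and Msx2 (-0.53, adjusted p 0.0011) passed and Maged1 did not (-0.02, adjusted p 0.839).

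Reported targets were grouped by tissue. All 7 dentin and bone targets were lower in Sox2-positive libraries over both batches, where 32.5% of all genes were, with a median of -5.22 against -0.12. Dspp, Sp7, Ibsp and Bglap are also among the 6 odontoblast and osteoblast markers, whose summed CPM ran from 491 to 930 in Sox2-negative and from 5.81 to 39.1 in Sox2-positive libraries, and the part of those cells was not tested. Runx2 and Sp7, the transcription factors of osteoblast and odontoblast differentiation, had -5.22 (SE 0.29, edgeR adjusted p 3.05e-14) and -3.55 (SE 0.35, adjusted p 1.86e-09). Spp1 fell from 3850 ± 719 to 2.18 ± 1.58 CPM in batch A and from 1690.0 ± 554 to 1.49 ± 1.48 in batch B (-10.41, SE 0.33, edgeR adjusted p 1.3e-19). In batch A alone 6 of the 7 passed, Dspp being the exception (-1.64, edgeR adjusted p 0.0677).

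Of 4 enamel targets 3 were tested. Amelx, the main enamel matrix protein, was lower in Sox2-positive libraries (-3.49, SE 0.53, edgeR adjusted p 2.96e-06), at 270 ± 20.6 against 652 ± 66.7 CPM in batch A and 6.74 ± 1.62 against 446 ± 31.9 in batch B. Enam averaged 21.4 ± 4.45 against 43.3 ± 10.4 CPM in batch A, and had 0 counts in every Sox2-positive library of batch B against 15.9 ± 3.27. Odam passed in the other direction over both batches (edgeR adjusted p 0.0469), at group means of 0 to 4.52 CPM. Odam was not tested in batch A and did not pass in batch B (0.79, SE 0.76, edgeR adjusted p 0.391). Both tested jaw targets of Dlx5 and Dlx6, Hand2 (-7.82, SE 0.42, edgeR adjusted p 9.08e-15) and Gsc, were lower. Gsc averaged 21.0 ± 9.01 and 27.9 ± 6.33 CPM in the Sox2-negative groups, 0.0335 in batch A Sox2-positive libraries and 0 in those of batch B, and Gbx2 had 0 counts in every library. The only skin target past the filter, Lor, did not pass the test (0.44, edgeR adjusted p 0.427). None of the 3 forebrain targets (Gad1, Gad2, Slc32a1) passed the filter on low counts, and their group means were at most 1.63 CPM.

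Of 14 other homeobox or paired-box genes of the tooth and first arch, 3 were higher and 11 lower over both batches. Of all genes, 24.9% were higher and 32.5% lower. The 6 Dlx genes had log2 differences of -3.32 (Dlx6) to 1.47 (Dlx2). All were smaller in size than the list's median but not than each of its genes, since Msx2 had -0.41. The median of the 14 was -6.93, or -6.19 with Lhx8 at its bound. Lhx8 had 0 counts in every Sox2-positive library and was at least 45.4-fold lower there with the batches pooled. The dental epithelial gene Isl1 (4.38, SE 0.20, edgeR adjusted p 5.24e-16) was higher, as were Pitx1 (2.13, adjusted p 5.01e-06) and Lhx6 (2.06, adjusted p 0.006). Lhx6 had low group means of 0.495 to 8.77 CPM. It was not tested in batch A and passed in batch B (1.59, SE 0.61, edgeR adjusted p 0.0359). Among the mesenchymal genes, Pax9 averaged 29.7 and 97.0 CPM in Sox2-negative and 0.691 and 0.104 in Sox2-positive libraries of batches A and B, Prrx2 90.6 and 107 against 0.0298 and 0.145, and Alx1 88.3 and 93.3 against 1.33 and 0.234. Dlx1 to Dlx5 stayed at group means of at least 16.2 CPM in all 4 groups. Msx1, Msx2 and Gsc belong to this list as well as to those above.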

How the data were processed

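RNA was measured in 23 libraries in 4 groups taken from the labels (2 batches by 2 sorted populations), made with Smart-seq2 and Tn5 tagmentation per the labels' protocols. The authors deposited a table of estimated counts, unscaled, made with Salmon among other tools per the submitters' processing notes. These notes name FastQC, Trimmomatic, Salmon and mm10; versions, annotation and strand setting are not given in the sources used here. Of nonzero values 0.000436% were whole numbers (tolerance 1e-06), so counts were rounded before testing. Symbols came from GENCODE M21: 54094 identifiers (99.5%) matched without the version, and 0 sample columns were left unused.

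Counts were tested with edgeR 4.0.16 in R 4.3.3 (TMM scaling, filterByExpr with a minimum count of 10, quasi-likelihood F test), with batch as a covariate, within each batch, and as 4 group means for the interaction and the batch differences. P-values were two-sided, adjusted by Benjamini-Hochberg over all genes tested, and called under 0.05. SEs were the size of the log2 fold change over the root of F. Levels in CPM used TMM-scaled totals, and likeness used log2 CPM with a prior count of 2. Levels per kb used the union exon length of GENCODE M21, not the lengths of the transcripts in use. Family shares were compared by exact permutation tests (scipy 1.17.1). The fits were first tested on simulated data. Total counts per library are given in the report.

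Alternatives were DESeq2 1.42.0, limma-voom 3.58.1 with quality weights, RLE and total-count scaling, 2 filters, leaving out each library, leaving out the batch B libraries numbered 1 and 2, the library number as a block, and shares not divided by length. No library of a group looked like a repeat of another (chi-square over its degrees of freedom was at least 5.195 in 57 pairs). Named genes were the 6 members, Sox2, the listed regulators, partners, targets, other homeobox genes and cell type markers, antisense RNAs, the 2 genes on either side of each pair, and the 2 most similar profiles per member. Some listed genes are not reported here and were left out of the lists' counts, medians and sums. The members and lists were chosen with earlier results of these data known. ATAC-seq data were not analysed here.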

Additional observations from a re-analysis of the deposited data

Results flagged for a closer look

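In 24 sets of 1 Dlx gene in 1 group, 3 had a library far from the rest of its group, and chance alone sets apart about 1 in 20 such groups. Dlx2 was lowest in batch A Sox2-negative library 2, at 30.4 CPM, with a gap to the next library of 0.675 of the group's range, and in batch B Sox2-negative library 3, at 67.9 CPM, with a gap of 0.960 of the range. Dlx4 was highest in batch A Sox2-positive library 5, at 29.5 CPM, with a gap of 0.654 of the range. The Dlx2 and Dlx4 population differences kept their calls without these libraries.

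The population difference differed between the batches for 2 genes by the test of the interaction: Dlx3 at -0.91 on the log2 scale and Dlx5 at 0.99. Both calls were lost without the batch B libraries numbered 1 and 2 (-0.70 with edgeR adjusted p 0.116, and 0.98 with adjusted p 0.0941).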

How the results depend on the processing

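Over 60 results and their alternatives, 1360 of 1430 recomputed values kept their direction and side of the threshold (a count, staying within 1.5 times), 30 lost and 5 gained a call, 18 counts moved by more, and 17 values turned sign. The population differences over both batches kept direction and call for all 6 genes under all 31 alternatives each, with adjusted p of 0.00372 at most. Total-count scaling moved the median of all genes by 0.12 on the log2 scale in that comparison and by -0.15 between the batches in Sox2-negative libraries. It changed the split of calls to 661 higher and 1388 lower there (1005 and 919 with TMM) and to 666 and 1214 in Sox2-positive libraries (833 and 952 with TMM).

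In batch B the Dlx5 difference lost its call with limma-voom (-0.31), total counts (-0.27), no filter beyond 1 count (-0.30), and without the libraries numbered 1 and 2 (-0.39). It ranged from -0.43 to -0.23 with 1 library left out. Without the libraries numbered 1 and 2, the interaction lost its calls for Dlx3 (-0.70) and Dlx5 (0.98), leaving 0 of 6 members and 481 of all genes called against 1210, and Dlx6 turned to 0.14. Dlx1 between batches in Sox2-negative libraries then had 0.71 without a call, as with total counts (0.70), and all genes called fell from 1924 to 754, against 2887 with DESeq2. Between batches in Sox2-positive libraries, all genes called were 1785, 1159 without these libraries and 3313 with limma-voom, and Dlx3 turned to 0.0853. Dlx1, near 0 there, turned sign with DESeq2 (-0.0083), RLE size factors (-0.0067) and total counts (-0.0878). Dlx2 had 0.35 with total counts and 0.45 with no filter beyond 1 count, so that 1 member was called. Of these settings, the 1 without the batch B libraries numbered 1 and 2 has fewer libraries in the fit. The cause of the changes was not tested.

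With 1 library left out, ranges were -0.74 to -0.47 for Dlx1 in batch A, -0.76 to -0.57 for the Dlx2 and -0.54 to 0.12 for the Dlx6 interaction, and 0.71 to 0.94 for Dlx1 between batches in Sox2-negative libraries. In Sox2-positive libraries they were -0.102 to 0.0736 for Dlx1, 0.40 to 0.51 for Dlx2, -0.100 to 0.0292 for Dlx3 and -0.0152 to 0.61 for Dlx6, with 1 to 2 members called. Share differences ranged from -6.59 to -3.62 points for Dlx3 in batch A and from 4.17 to 6.76 for Dlx5 in batch B.

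Same-numbered libraries of the 2 populations showed little shared deviation, with correlations of -0.0241 to 0.0609. Low values do not settle whether the numbers link mice, because noise between libraries can hide a shared part. The labels do not say either. With the library number as a block, the interaction was -0.97 for Dlx3 (edgeR adjusted p 0.0636) and 1.02 for Dlx5 (adjusted p 0.0976), with 0 members and 557 genes called, and the batch B difference of Dlx5 was -0.31 (adjusted p 0.162). The block changed no other Dlx call. Differences between batches had no block because the numbers do not link mice of different days. Depth limits Dlx6 in Sox2-positive libraries, where 2 values were under 3 counts.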
